A study of Rattus norvegicus with 2 samples.

Results

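The p53 response genes are a list of genes described as regulators of the transcription factor p53 or as its targets after DNA damage. Whether p53 controls each of them in this tissue was not tested. The 36 listed genes comprised 4 of feedback, 9 of arrest, 13 of apoptosis, 4 of repair and 6 of stress and metabolism. The deposited mRNA table held 34 of them by symbol. Trp53inp2 was found by a synonym as Tp53inp2, and Tigar was not matched and was not analysed here. The members analysed were thus 35 of 22312 genes. The table held 1 library of skin exposed to a single dose of 45 Gy of electrons and 1 library of skin from an area without irradiation, both from male Sprague-Dawley rats of 4 weeks. Neither the time between exposure and sampling nor the number of rats behind each library is stated in the labels, and whether both areas came from the same rats is not stated either. With 1 library per group no difference has a replicate check, no test of the radiation was possible, and all statements describe these 2 libraries.

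The p53 protein is kept scarce by Mdm2, a ubiquitin ligase that marks it for destruction, and by the related Mdm4. Kinases that sense broken DNA release p53 from this control, and p53 then activates genes that halt the cell cycle, genes that start cell death, genes that help repair, and the genes of its own inhibitors, which close a feedback loop. In skin the response is well known from the epidermis and the hair follicle, whose dividing cells are sensitive to radiation.

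Sequences just before the gene starts are shown for 4 members: Cdkn1a and Ccng1, whose windows came closest to the paired p53 consensus, and Perp and Sfn, the members with the largest ratios. They are the 250 bases before a start in RefSeq, build GRCr8, 5′ to 3′ on the gene's strand. For a gene with more than 1 distinct window, the window closest to the paired p53 consensus was taken. Capitals mark GC boxes (GGGCGG, searched on both strands, so also as CCGCCC) and, in Cdkn1a and Ccng1, the 20 bases that differ at 1 position from a pair of adjacent p53 decamer consensus sequences.
Cdkn1a, chr20:7150682-7150931, plus strand: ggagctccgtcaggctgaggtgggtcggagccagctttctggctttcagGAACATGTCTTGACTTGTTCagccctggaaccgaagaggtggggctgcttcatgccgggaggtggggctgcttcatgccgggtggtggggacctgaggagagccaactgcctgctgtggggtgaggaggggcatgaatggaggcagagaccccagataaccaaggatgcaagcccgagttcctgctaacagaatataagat
Ccng1, chr10:25684877-25685126, minus strand: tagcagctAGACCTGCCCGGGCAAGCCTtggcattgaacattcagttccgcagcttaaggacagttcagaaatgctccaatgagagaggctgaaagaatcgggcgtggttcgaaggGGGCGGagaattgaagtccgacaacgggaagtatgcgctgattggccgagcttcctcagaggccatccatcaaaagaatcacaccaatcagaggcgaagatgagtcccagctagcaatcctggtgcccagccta
Perp, chr1:15361534-15361783, plus strand: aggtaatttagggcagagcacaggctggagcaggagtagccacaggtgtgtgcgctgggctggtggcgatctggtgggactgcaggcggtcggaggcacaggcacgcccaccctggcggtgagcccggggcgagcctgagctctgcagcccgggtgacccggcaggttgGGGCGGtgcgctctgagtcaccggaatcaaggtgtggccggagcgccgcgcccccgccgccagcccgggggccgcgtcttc
Sfn, chr5:151111855-151112104, minus strand: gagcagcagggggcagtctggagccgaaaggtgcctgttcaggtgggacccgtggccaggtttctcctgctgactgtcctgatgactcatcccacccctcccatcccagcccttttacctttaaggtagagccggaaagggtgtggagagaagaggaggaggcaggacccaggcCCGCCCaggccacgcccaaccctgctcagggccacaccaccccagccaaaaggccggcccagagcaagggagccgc

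The RefSeq windows of 28 members were searched on both strands. The p53 decamer consensus, the unit of which p53 binds a pair, was present in 6 of them: Cdkn1a, Ccng1, Gadd45a, Aen, Ei24 and Sesn1. It was present in at least 1 window of 7.15% of the 27457 genes searched. These are all genes with a window in RefSeq, measured here or not, so they are not matched in kind to the members. No member window held a pair of exact decamers up to 13 bases apart, which 0.0364% of all genes had. A pair without spacing and with at most 1 difference over 20 positions lay before Cdkn1a and Ccng1 and before 0.0656% of all genes. This relaxed search was added after the Cdkn1a window had been read. The GC box was present before 23 of 28 members and before 33.5% of all genes. The TATA box (TATAAA) was present before Gadd45g, Eda2r and Gdf15, and before 14.1% of all genes. The CCAAT box (CCAAT) was present before 13 of 28 members and before 36.1% of all genes. These matches are letters in a window and do not show binding. Bax, Bbc3, Tnfrsf10b, Tp53inp1, Rrm2b, Ddb2 and Zmat3 had no entry in the promoter table.

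Most measured p53 response genes differed little between the libraries, and 4 were at least 2-fold higher after irradiation: Perp, Sfn, Cdkn1a and Bbc3. Of the 35 members 24 averaged 1 FPKM or more over the libraries (reads per transcript length and library size). These are called measured members here, and each was given a ratio, log2((irradiated FPKM + 1)/(non-irradiated FPKM + 1)). Of the 24, 4 were higher by 2-fold or more, 0 were lower by as much and 20 differed by less. Among all 9743 genes measured in this sense, 9.70% were higher by 2-fold or more and 1.53% were lower by 2-fold or more. The members' median ratio was 0.38 on the log2 scale and that of all genes 0.21, and 16 of the 24 members lay above the median of all genes. Plk3 was the 1 member of the 24 with less than 1 FPKM in 1 library. The member nearest above the 2-fold line was Bbc3 (log2 1.22) and the nearest below it was Plk3 (0.89). With the median of all genes set to 0, which lowers each ratio by 0.21, the members split into 4 higher and 1 lower, the lower one being Sesn1, and 6.92% of all measured genes were higher and 2.73% lower.

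**Figure D1:**
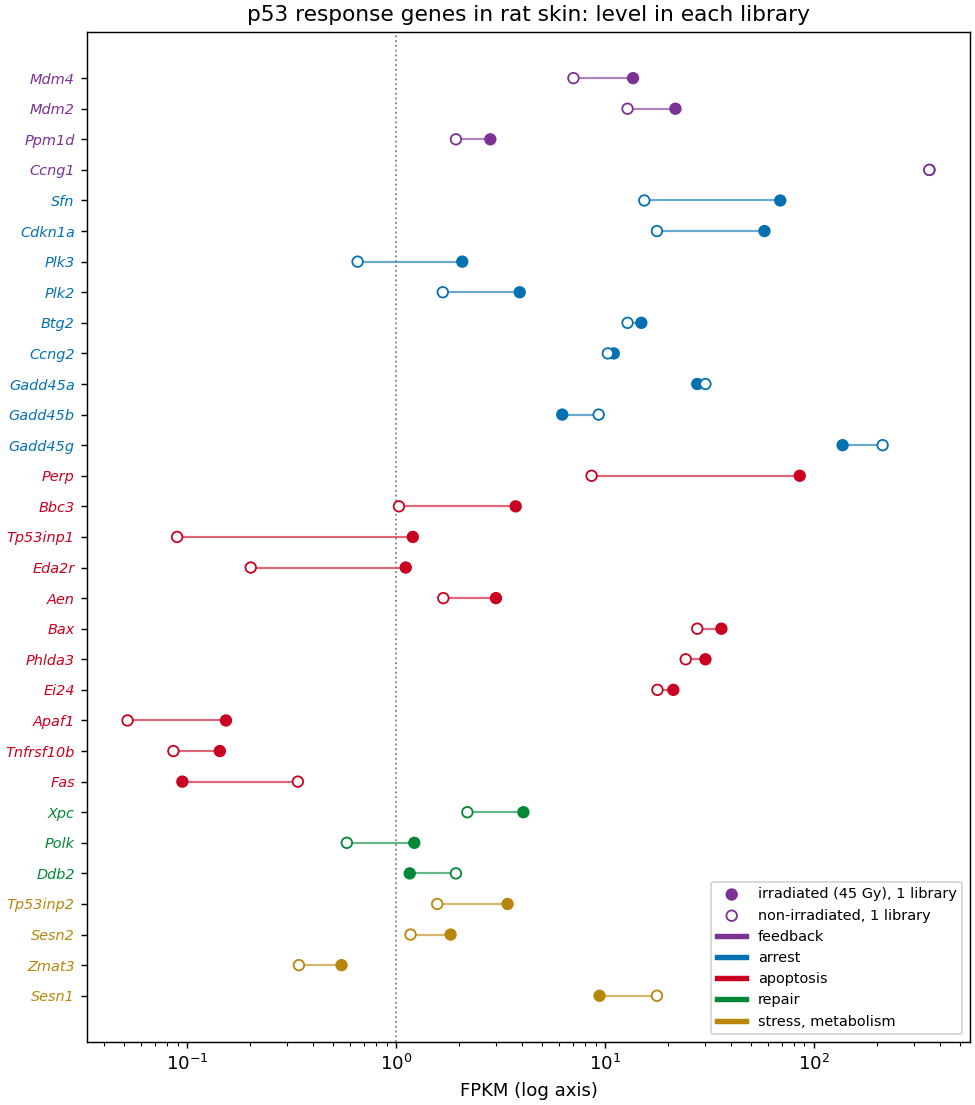
FPKM of each member in the irradiated library (filled) and the non-irradiated library (open) on a log axis, coloured by arm, with a dotted line at 1 FPKM. Ccng1 is the highest member, with both points at the same place, Perp shows the widest gap among the members above 1 FPKM in both libraries, and the 4 members listed at 0 in at least 1 library are not drawn.

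Libraries cut from skin can differ in the cells they hold, so markers of 5 cell types were measured beside the members. All 15 keratinocyte markers had more FPKM after irradiation. The 13 measured ones were each higher by 2-fold or more (median log2 2.77, range 1.01 to 5.58). The summed level of the 15 was 3139 FPKM with irradiation and 203 FPKM without. One of them, Dsg3, was at 0 in the non-irradiated library. The 12 skeletal muscle markers took 27.2% of reads in the irradiated library, against 30.2% in the other, so both libraries labelled skin were rich in muscle RNA. The median ratio of these markers was -0.25, and they ranged from -0.84 for Ckm, the muscle creatine kinase, to 1.37 for Myh2, a myosin heavy chain. Fibroblast markers had a median of -0.57 over 8 genes, endothelial markers -0.58 over 3 and leukocyte markers -0.02 over 4. Their summed levels were 821 against 1215, 13.8 against 23.8 and 125 against 130 FPKM, with the T cell marker Cd3e at 0 in the non-irradiated library. In bulk tissue, fewer cells of a type and less RNA per cell cannot be told apart. The part of keratinocyte content in the members' ratios was not tested.

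Cdkn1a encodes p21, the inhibitor of cyclin-dependent kinases through which p53 halts the cell cycle. It lies on chromosome 20 at 8592436 to 8602879, plus strand, in the coordinates of the table, whose genome build is not given in the sources used here. Cdkn1a stood at 57.9 FPKM on 1221 reads in the irradiated library, against 17.7 FPKM on 415 reads in the non-irradiated library. This is 3.28-fold in FPKM and 1.66 on the log2 scale, above 96.3% of all measured genes. In scaled counts, the 95% exact counting interval of the log2 ratio was 1.54 to 1.87. This interval and those below cover counting error in 2 libraries and not variation between rats. Of the 3 members past 2-fold with a RefSeq window (Perp, Sfn and Cdkn1a), Cdkn1a was the one whose window held the near-complete p53 pair printed above.

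Sfn encodes 14-3-3 sigma, a protein that holds back entry into mitosis and is abundant in stratified epithelium. Its locus on chromosome 5 (155513266 to 155514013, minus strand) spans 747 bases in the table. Sfn stood at 68.9 FPKM on 486 reads in irradiated skin and 15.4 FPKM on 122 reads in non-irradiated skin. Its log2 ratio was 2.09, and the interval for its scaled counts was 1.85 to 2.44.

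The other 7 arrest genes all lay within 2-fold. Plk2 and Plk3, polo-like kinases that respond to stress, had higher values in irradiated skin without passing 2-fold on the log2(FPKM + 1) scale. Plk2 stood at 3.90 FPKM against 1.67 FPKM, with a log2 ratio of 0.88. Plk3 stood at 2.07 FPKM against 0.653 FPKM, on 57 against 20 reads. With no number added to the FPKM the ratios of Plk2 and Plk3 were 2.34-fold and 3.17-fold, so their place relative to the 2-fold line depends on the added 1 FPKM.

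All 3 Gadd45 genes, which encode small stress sensors that bind growth-arrest and kinase partners, had lower values in the irradiated library. Gadd45g stood at 137 FPKM on 1525 reads after irradiation, against 213 FPKM on 2649 reads without it. Its log2 ratio was -0.63, with an interval of -0.74 to -0.56. Gadd45b stood at 6.23 FPKM against 9.31 FPKM (log2 -0.51, interval -1.0 to -0.19). Gadd45a stood at 27.6 FPKM against 30.2 FPKM, and its interval of -0.35 to 0.06 included 0. All 3 stayed within 2-fold. Ccng2, an unusual cyclin of arrested cells, had 11.0 against 10.3 FPKM, and Btg2, an antiproliferative cofactor, had 14.9 against 12.8 FPKM. The table's locus for Btg2 spans 255481 bases and overlaps 2 rows on the other strand, and use of the strand in counting is not given in the sources used here.

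**Figure D2:**
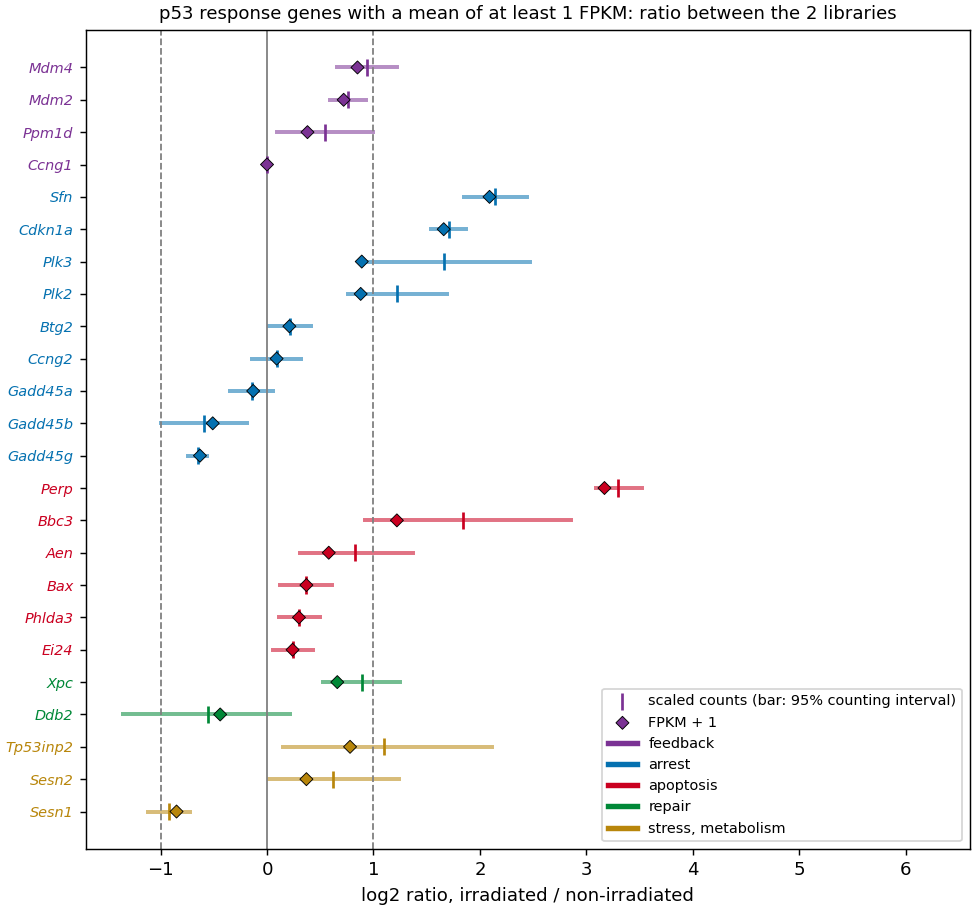
Log2 ratio of irradiated over non-irradiated skin for the 24 measured members, by arm: diamonds are ratios of FPKM + 1, ticks are ratios of scaled counts and bars are their 95% counting intervals. Diamonds of Perp, Sfn, Cdkn1a and Bbc3 lie beyond the dashed 2-fold line at 1, and those of the Gadd45 genes, Ddb2 and Sesn1 lie left of 0.

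Among the apoptosis genes, Perp had the largest ratio of the 24 members. Perp encodes a membrane protein that takes part in p53-driven cell death and is also a component of desmosomes, the junctions that hold keratinocytes together. It lies on chromosome 1 at 15786755 to 15799199, plus strand. Perp stood at 85.4 FPKM on 1798 reads in irradiated skin, against 8.61 FPKM on 202 reads in non-irradiated skin. The difference was 9.92-fold in FPKM, with a log2 ratio of 3.17 and an interval of 3.09 to 3.52. The 4 other measured desmosomal genes among the keratinocyte markers had ratios from 1.01 to 2.51. Dsp, desmoplakin, stood at 11.0 against 1.12 FPKM (log2 2.51), and Pkp1, plakophilin 1, at 11.7 against 1.26 FPKM (log2 2.50). Dsc3, desmocollin 3, stood at 3.21 against 0.160 FPKM (log2 1.86), and Jup, plakoglobin, at 19.1 against 9.02 FPKM (log2 1.01).

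Bbc3 encodes Puma, a protein of the BH3-only group that triggers death through mitochondria. It lies on chromosome 1 at 79520746 to 79521829, plus strand. Bbc3 stood at 3.73 FPKM in irradiated skin, against 1.03 FPKM in non-irradiated skin, on 42 against 13 reads. Its log2 ratio was 1.22, and the lower end of its interval, 0.92 to 2.86, lay below 2-fold. Bax, the pore-forming protein that Puma unleashes, stood at 36 FPKM against 27.6 FPKM (log2 0.37, interval 0.12 to 0.61).

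The remaining measured apoptosis genes were slightly higher and within 2-fold. Aen, a nuclease of dying cells, had 3.0 against 1.68 FPKM. Phlda3, which restrains the survival kinase Akt, had 30.2 against 24.3 FPKM. Ei24, a membrane protein, had 21.2 against 17.8 FPKM, and its log2 ratio of 0.24 turned to just below 0 (-0.01) under trimmed-mean scaling. Of all 9743 measured genes 6630 had ratios above 0. The apoptosis arm held ratios above 0 for all 6 measured genes, with a median of 0.48 (Ei24 excepted under trimmed-mean scaling). The 9 arrest genes had 6 above 0 and 3 below 0 with a median of 0.21, and Ccng2 and Btg2 among the 6 turned below 0 when the median of all genes was set to 0. Whether the arms differ was not tested.

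The other 7 apoptosis genes had means below 1 FPKM and were given no call. The death receptor genes were at the lower limit of detection: Fas had 1 read against 4 and Tnfrsf10b had 3 against 2, with log2 intervals of -7.47 to 1.49 and -2.39 to 4.32. Apaf1, the scaffold of the caspase-activating complex, had 8 against 3 reads. Eda2r, a receptor of the tumour necrosis factor family, had 17 reads in irradiated and 2 in non-irradiated skin, with a log2 interval of 1.16 to 6.39. Tp53inp1, a nuclear protein that promotes p53 activity under stress, had 12 reads against 1, with an interval of 0.98 to 9.15. Eda2r and Tp53inp1 therefore had more reads after irradiation, at a depth that leaves the size of the difference wide. Pmaip1, which encodes Noxa, and Pidd1, which encodes a death domain protein, were listed at 0 in both libraries.

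Of the feedback genes, the inhibitors of p53 were higher in irradiated skin, below 2-fold, and cyclin G1 was equal. Mdm2 stood at 21.7 FPKM on 725 reads against 12.8 FPKM on 474 reads, with a log2 ratio of 0.72 and an interval of 0.59 to 0.93. Mdm4 stood at 13.6 FPKM on 290 reads against 7.05 FPKM on 168 reads, with a log2 ratio of 0.85 and an interval of 0.66 to 1.22. The ratio of Mdm2 lay above those of 82.4% of measured genes and that of Mdm4 above 86.8%. Ppm1d, the phosphatase Wip1 that resets the damage signal, stood at 2.82 against 1.93 FPKM, and its locus of 283547 bases overlaps 1 other row on the same strand.

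Ccng1, which encodes cyclin G1 and recruits a phosphatase that activates Mdm2, was the highest of all members in both libraries. It stood at 357 FPKM on 14910 reads in irradiated skin and 356 FPKM on 16522 reads in non-irradiated skin. The log2 ratio was 0.00 with an interval of -0.03 to 0.03. Relative to the median of all genes it was -0.21. In the search added after the Cdkn1a window had been read, Ccng1 and Cdkn1a each had a near-complete p53 pair in the RefSeq window. Their ratios were 0.00 and 1.66, and a link between pair and ratio was not tested.

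Of the 4 repair genes 2 were measured, and both lay within 2-fold. Xpc, which recognises damaged DNA in nucleotide excision repair, stood at 4.06 FPKM against 2.19 FPKM (log2 0.66, interval 0.53 to 1.25). Ddb2, its partner in recognising ultraviolet lesions, stood at 1.16 FPKM against 1.93 FPKM on 24 against 39 reads, and its interval of -1.35 to 0.22 included 0. Polk, a DNA polymerase that copies past lesions, had 55 reads against 29 at a mean below 1 FPKM. Rrm2b, the p53-induced subunit of ribonucleotide reductase, was listed at 0 in both libraries. Ep300, a coactivator gene of wide use, was also listed at 0 in both, so a listed 0 may not mean absence.

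In the stress and metabolism group the sestrin genes, which encode inhibitors of growth signalling through mTORC1, had ratios of opposite sign. Sesn1 stood at 9.40 FPKM on 313 reads in irradiated skin, against 17.7 FPKM on 655 reads in non-irradiated skin. Its log2 ratio of -0.85 was the lowest of the 24 members, with an interval of -1.12 to -0.72, and 2.33% of all measured genes had a lower one. The locus of Sesn1 overlaps 1 other row on the same strand. Sesn2 stood at 1.82 FPKM against 1.17 FPKM (log2 0.37, interval 0.02 to 1.24). Tp53inp2, which takes part in autophagy, stood at 3.41 FPKM on 29 reads against 1.57 FPKM on 15 reads. Zmat3, an RNA-binding protein, had 36 against 25 reads at a mean below 1 FPKM. Gdf15, a secreted stress cytokine, had 2 reads against 0, too few for a ratio.

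**Figure D3:**
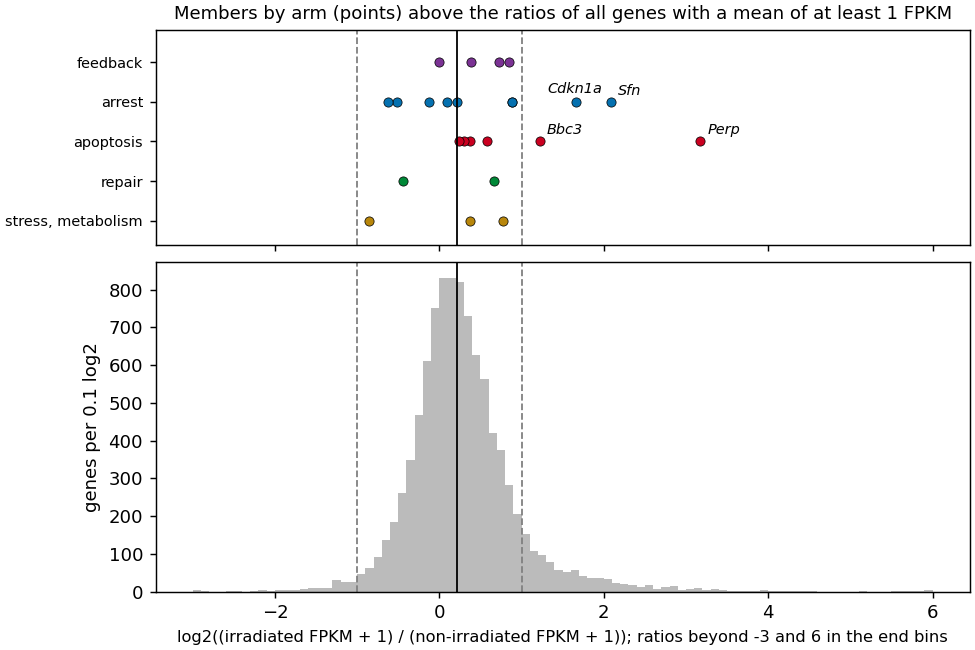
Log2 ratios of the 24 members by arm (upper panel) above the distribution for all 9743 measured genes (lower panel, genes per bin), with a solid line at the median of all genes, 0.21, and dashed lines at 2-fold. Most members lie within the bulk of all genes. Perp, Sfn and Cdkn1a lie above the 95th percentile of all measured genes (1.44), and Bbc3 lies between it and the 2-fold line. Sesn1 and Gadd45g lie below the 5th percentile (-0.60).

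A list of 40 other genes known as p53 targets, mostly from human cells, was examined beside the members. Of the 39 matched genes 27 were measured. Among them 4 (14.8%) were higher by 2-fold or more, 0 were lower and 23 differed by less, and the median was 0.28. For comparison, 9.70% of all measured genes were higher and 1.53% lower by as much, with a median of 0.21. Serpinb5, the epithelial serpin maspin, stood at 18.9 FPKM against 3.0 FPKM (log2 2.31). Epha2, an ephrin receptor kinase, stood at 2.86 FPKM against 0.678 FPKM. Tp53i11 stood at 4.10 FPKM against 1.05 FPKM on 127 against 36 reads. The most abundant genes of the list had ratios of opposite sign within 2-fold. Rps27l, a ribosomal protein gene, had 472 against 353 FPKM (log2 0.42), and Ak1, an adenylate kinase, had 82.5 against 107 FPKM (log2 -0.37). The level of Rps27l is uncertain, since ribosomal protein genes have close copies among which reads can be split.

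All 17 measured regulators of p53 lay within 2-fold on the log2(FPKM + 1) scale, with a median of 0.11. Usp7, an enzyme that removes ubiquitin from Mdm2 and p53, stood at 13.8 FPKM against 6.80 FPKM (log2 0.93). Cdkn2a, whose alternative product Arf inhibits Mdm2, had 2.85 against 1.37 FPKM on 11 against 6 reads. With no number added to the FPKM the ratios of Usp7 and Cdkn2a were 2.03-fold and 2.09-fold, just past the 2-fold line. The log2 interval of Cdkn2a, -0.54 to 2.74, included 0, and that of Usp7 was 0.81 to 1.23. The locus of Cdkn2a spans 356402 bases and overlaps 1 other row on each strand. The ribosomal proteins Rpl11 and Rpl23, which bind Mdm2 under ribosomal stress, had log2 ratios of 0.66 and 0.45. Of 5 upstream damage kinases only Chek1 reached a mean of 1 FPKM, at 1.60 against 0.635 FPKM.

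Cell cycle genes that p53 is known to repress by way of p21 were not lower in the irradiated library. Of 16 such genes 12 were measured. Of these 12, 7 (58.3%) were higher by 2-fold or more, 0 were lower, and the median was 1.13. Over all measured genes 9.70% were higher and 1.53% lower by as much, and the median was 0.21. Aurka, a mitotic kinase, stood at 9.05 FPKM against 1.16 FPKM, Cdc20, an activator of the anaphase complex, at 4.68 FPKM against 1.13 FPKM, and Cdk1, the kinase of mitosis, at 13.5 FPKM against 5.27 FPKM. Cdkn1a itself was 3.28-fold higher in the same library. The keratinocyte markers were higher there too, at a median of 2.77, and their part in these ratios was not tested.

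**Figure D4:**
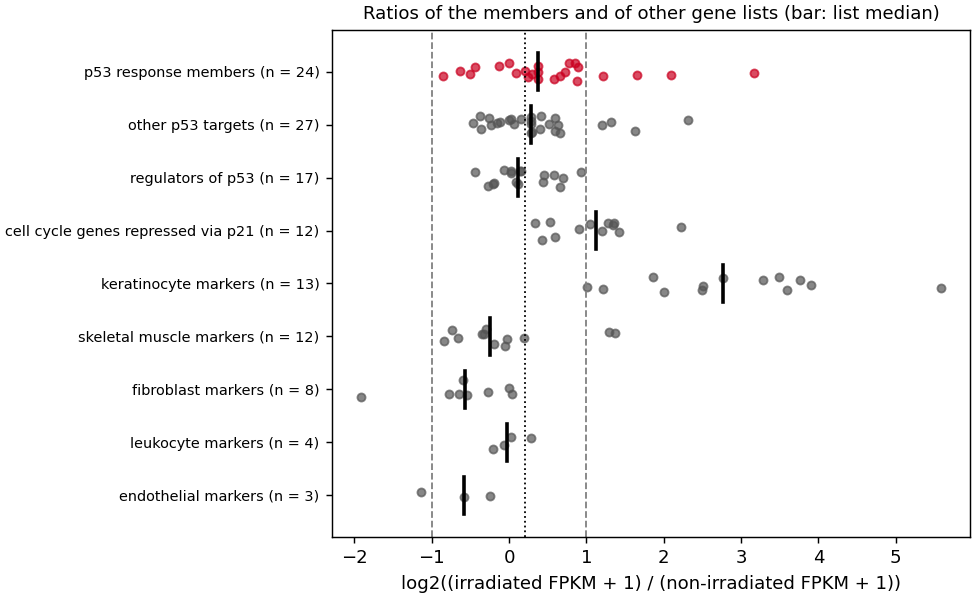
Log2 ratios of irradiated over non-irradiated skin for measured genes of the member list, 3 related p53 lists and 5 lists of cell type markers (points are genes, black bars list medians, the dotted line the median of all genes and dashed lines 2-fold). The medians of the members (0.38) and of the other p53 targets (0.28) lie near that of all genes (0.21), while the keratinocyte median is 2.77.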

How the data were processed

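Per the labels, skin RNA was depleted of ribosomal RNA and made into stranded total RNA libraries. Per the submitters' processing notes, cutadapt 1.9.3, HISAT2 2.0.4, Cufflinks and Cuffdiff were used, without roles or settings; the genome build is not given in the sources used here. The authors deposited FPKM values and count columns that hold a scaled signal: low values were multiples of 1 step per library (1.05 and 0.951), and 97.7% and 98.0% of values above 0 came out as whole reads, with a tolerance of 0.01 read plus 1e-05 per read. Dividing by the step gave read numbers, 11197446 and 12649562 in all for the irradiated and non-irradiated libraries. They are not raw counts and each group has 1 library, so no count model of differences between the groups was fitted. The counting intervals do treat these recovered numbers as reads.

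The irradiated library is titled NC, an abbreviation left unexplained; groups follow the source labels, and all directions rest on them. Rows sharing a symbol were summed. Genes averaging 1 FPKM or more (measured genes) were compared by log2 ratio with 1 FPKM added, which understates differences of low genes, and called at 2-fold. Intervals are 95% exact Clopper-Pearson intervals for scaled counts with nothing added, from SciPy 1.17.1. They cover counting error only, and PCR copies are not independent. Since the scales differ, a ratio of FPKM + 1 can lie outside its interval. The steps were tested on simulated data. Members and lists were chosen with earlier results of these data known. All members are described; of the other lists, the 2 largest ratios and the 2 highest means were named, and the other p53 targets past 2-fold. A few of these genes are not reported here. Alternatives covered the added FPKM, the filter, the scaling and scaled counts in place of FPKM.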

Additional observations from a re-analysis of the deposited data

How the results depend on the processing

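Under 8 other settings and 1 more chosen after seeing the data (members matched by symbol alone), the number of members at least 2-fold higher was between 3 and 7, and Perp, Sfn and Cdkn1a were among them each time. It was 7 with 0.1 FPKM added, through Plk2, Plk3 and Tp53inp2. The share of all genes that were higher moved as well, from 2.73% with 5 FPKM added to 16.0% with 0.1 FPKM added. Bbc3 was within 2-fold with 5 FPKM added and was left out by a mean of at least 5 FPKM. The number of lower members was 1 (Sesn1) with the median of all genes set to 0 and with trimmed-mean scaling, and 0 otherwise; of all genes 2.73% and 2.79% were lower under these scalings. The members' median ran from 0.17 to 0.56. Of the other p53 targets 1 (Serpinb5) was higher with 5 FPKM added, of 27, and with a mean of at least 5 FPKM, of 17. Of all genes 2.73% and 5.94% were higher under these settings. The median of the other p53 targets ran from 0.06 to 0.33, and that of all genes from -0.01 to 0.25. Ccng1, Ccng2, Btg2 and Ei24 lay near 0, and their sign turned with the scaling, which moved all ratios by up to 0.26. No paired analysis was possible because each group has 1 library. Depth limits the members below 1 FPKM.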
